A study of Mus musculus with 6 samples.

Results

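The vascular guidance genes described here are the semaphorins and their plexin receptors, the ephrins and their Eph receptors, the Slits and their Robo receptors, and the netrins and their Unc5 receptors. They were chosen by gene symbol, by a rule that reads no measured value but was written with earlier results of these data known. The rule took symbols of Sema classes 3 to 7, Plxn A to D, Efn A and B, Eph A and B, Robo, Slit, Unc5 and Ntn. It found 55 of the 13595 genes of the deposited table. These were 27 semaphorin-plexin genes (19 semaphorins and 8 plexins), 16 ephrin-Eph genes (7 ephrins and 9 Eph receptors), 6 Slit-Robo genes (2 Slits and 4 Robos) and 6 netrin-Unc5 genes (3 netrins and 3 Unc5 receptors).

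These ligand and receptor families were first known for steering growing axons, and vessels use the same molecules. A ligand on a neighbouring cell, or secreted into the matrix, binds a receptor on the endothelial cell and changes its cytoskeleton and adhesion, so that sprouts turn away, advance or stop. Class 3 semaphorins are secreted and mostly signal through plexins with a neuropilin as coreceptor, while classes 4 to 7 are bound to the membrane. Ephrins and Eph receptors are both membrane-bound and signal into both cells at a contact. In the embryo, ephrin-B2 marks arteries and EphB4 marks veins.

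The series compared primary CD31-positive cells, selected for an endothelial surface protein, from the livers of C57BL6/J mice of both sexes at 4 weeks of age. The cells were cultured, and all 6 libraries used here were from cells given 100 µM indoxyl sulfate together with hypoxia and nutrient deprivation (6 hours). Indoxyl sulfate, which derives from tryptophan, is a ligand of the aryl hydrocarbon receptor (AHR), a transcription factor. There were 3 libraries labelled male and 3 labelled female, called male-labelled and female-labelled below, with replicate numbers 4, 5 and 6 in each group, and untreated cells were not analysed here. The labels do not say whether the replicates were mice, isolations or wells, so the p-values measure the spread between these libraries, which may be technical. RNA was sequenced after poly(A) enrichment to between 22303270 and 31189363 reads over the table's genes, and 3 reads correspond to a normalized read count of 0.106 to 0.142.

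The labels were checked against sex-linked genes before any comparison. Xist, the RNA of the inactive X chromosome, averaged 286 ± 46.7 (SD, n = 3) normalized reads in the female-labelled libraries and 0.323 ± 0.176 in the male-labelled libraries. The Y-linked genes were present in both groups. Ddx3y averaged 57.0 in the male-labelled libraries and 52.1 in the female-labelled libraries, and Uty 26.9 and 24.1. Eif2s3y (58.1 and 29.8) and Kdm5d (34.8 and 19.1) were lower in the female-labelled libraries but far above the level of 3 reads. All 3 libraries labelled female therefore carry reads of Y-linked genes, so each direction below is between libraries labelled female and libraries labelled male. The groups were separated on the first principal component, with 92.7% of the variance. The second, with 4.18%, separated the library labelled male 4 from the other 5, so results are also given without it where a call depends on it.

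Markers of several cell types differed between the groups. Of 16 endothelial markers, 13 passed the filter on low values, of which 2 were higher and 10 lower in the female-labelled libraries. Their summed level was 2392 to 2511 normalized reads in the male-labelled libraries and 1278 to 1341 in the female-labelled libraries, with Cldn5 at 3 reads or fewer in each library labelled female and Sox17 in each labelled male. Pecam1, which encodes CD31 itself, averaged 407 and 73.9. The summed level of 10 liver sinusoidal endothelial markers was 512 to 553 against 50.4 to 54.2, with Clec4g and Fcgr2b at 3 reads or fewer in all 6 libraries, Stab2 in each male-labelled and Dnase1l3 in each female-labelled one. The 16 stellate and mural markers summed to 2901 to 3738 against 3579 to 4298 (6 higher and 9 lower of 15 tested). The 7 mesothelial markers summed to 117 to 120 against 389 to 426 (5 higher and 1 lower of 6 tested), with Upk3b, Wt1 and Lrrn4 at 3 reads or fewer in each library labelled male. The 7 cholangiocyte markers summed to 1648 to 2496 against 513 to 615 (1 higher and 5 lower of 6 tested). The 9 macrophage markers (Marco, Vsig4, Cd163, C1qa and C1qb at 3 reads or fewer in all libraries) summed to at most 15.8 and the 7 hepatocyte markers to at most 8.18 in any library. These markers move with the same contrast as the guidance genes, and their part in the results below was not tested. In RNA from a whole culture, fewer cells of a type and less RNA per cell cannot be told apart.

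Of the 55 guidance genes, 50 passed a filter of a normalized read count of at least 1 in at least 3 libraries. Of these 50, 42 differed between the groups at an adjusted p below 0.05 in limma (84.0%), 18 higher and 24 lower in the female-labelled libraries. Over all 12568 genes tested, 69.3% passed the same threshold, with 34.6% higher and 34.6% lower. A log2 fold change of at least 1 in either direction was reached by 25 of the 50 (50.0%), against 20.6% of all genes. One of at least 3 was reached by 5 of the 50, against 1.7% of all genes. The median absolute log2 fold change was 1.02 over the guidance genes tested and 0.46 over all genes tested, and the median signed value was -0.29 against 0.01. In 42 of the 50 the values of the 2 groups did not overlap, against 74.1% of all genes. There were 6 genes that passed the filter through 1 group alone, with no library of the other group at a value of 1. Plxnc1, Sema3b, Robo4 and Epha1 passed through the male-labelled libraries, and Sema3d and Sema4f through the female-labelled libraries. A difference was thus built into their selection. Unc5c, Sema6c, Robo3, Sema4d and Efna2 reached 1 in some but not all libraries of a group. They too needed the other group to pass. Without the library labelled male 4, 46 of the 50 were called, 20 higher and 26 lower, while calls over all 12568 genes went from 8704 to 9496. The edgeR quasi-likelihood test on recovered reads called 42 of the 50, against 68.8% of all genes.

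**Figure D1:**
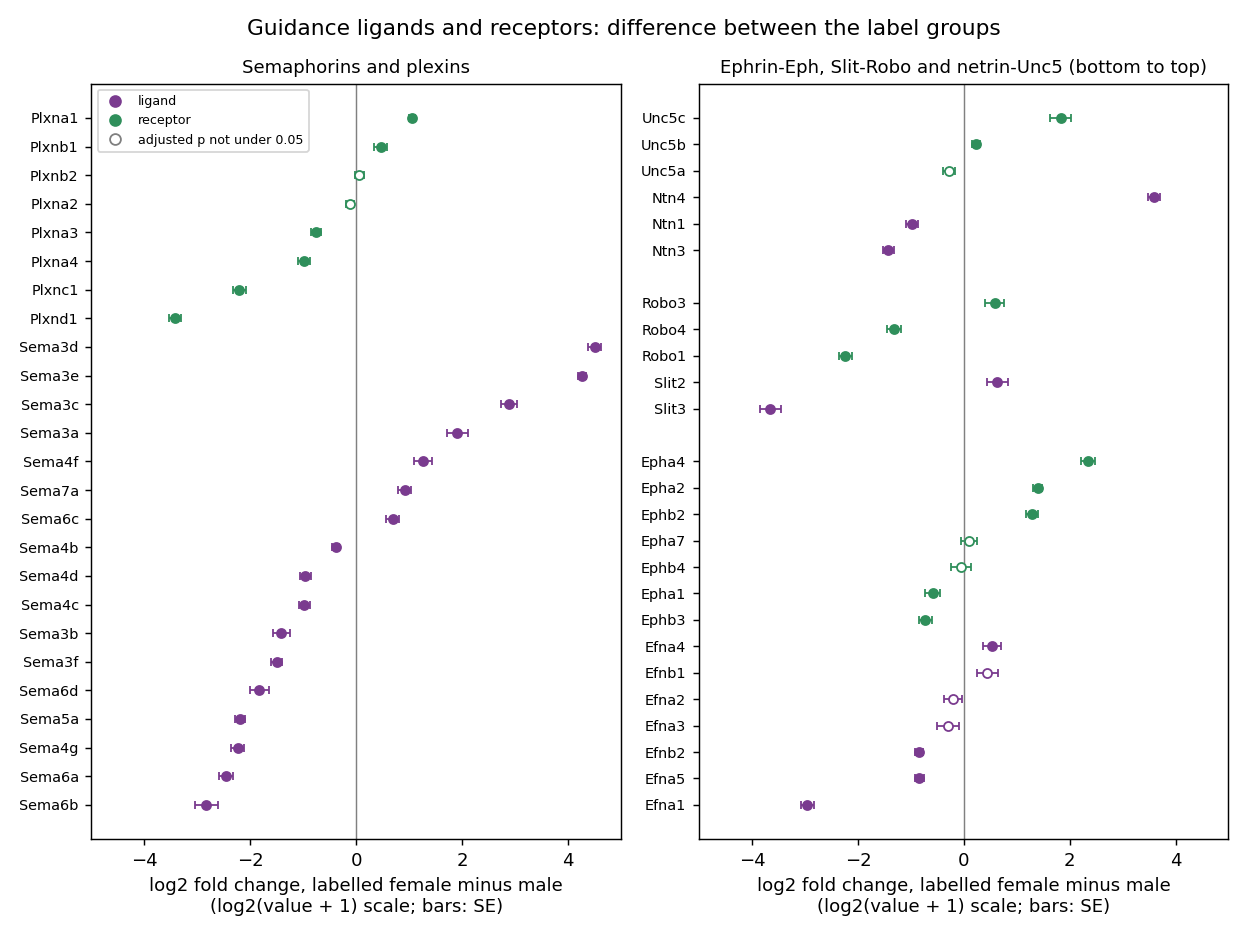
Log2 fold change of each of the 50 guidance genes tested, libraries labelled female minus male on the log2(value + 1) scale, with bars of 1 SE; filled points passed the adjusted p threshold of 0.05 and colours separate ligands from receptors. Sema3d (4.50) and Sema3e (4.27) lie farthest to the right, and Slit3 (-3.65) and Plxnd1 (-3.42) farthest to the left.

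Among the semaphorins, log2 fold changes ranged from -2.83 (Sema6b) to 4.50 (Sema3d). Of the 6 class 3 semaphorins tested, 4 were higher (Sema3a, Sema3c, Sema3d and Sema3e) and 2 lower (Sema3b and Sema3f) in the female-labelled libraries. Of the 11 tested of classes 4 to 7, 3 were higher and 8 lower. Among the 8 plexins, 2 were higher, 4 lower and 2 were not called. These counts include Sema3d, Sema3b, Sema4f and Plxnc1, which passed the filter through 1 group alone. Over all genes tested 34.6% were higher and 34.6% lower. Across the 25 semaphorin-plexin genes tested the median log2 fold change was -0.75, against 0.01 over all genes.

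Sema3e, a repulsive ligand for endothelial cells that binds plexin-D1 without a neuropilin, was at 50.5, 44.2 and 43.6 normalized reads in the male-labelled libraries. It was at 922, 894 and 897 in the female-labelled libraries. The means were 46.1 ± 3.79 and 904 ± 15.3 (SD, n = 3), a ratio of 19.6. The log2 fold change was 4.27 (SE 0.07, adjusted p = 5.48e-09). Plxnd1, its receptor, went the other way. It was at 168, 155 and 167 in the male-labelled libraries and 17.5, 13.7 and 12.3 in the female-labelled libraries, a level 11.3 times lower (log2 fold change -3.42, SE 0.12, adjusted p = 1.15e-07). The number of Sema3e reads for each Plxnd1 read was thus 0.261 to 0.301 in the male-labelled libraries and 52.6 to 72.6 in the female-labelled libraries. This ratio is of reads, not of molecules, and its change between the groups does not depend on gene length.

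Because the ligand and its receptor differed in opposite directions by more than 10-fold, the sequences before their start sites are shown. Each is the 250 bases upstream of a RefSeq transcription start in GRCm38.p6, on the gene's own strand. Capitals mark GCGTG or its reverse complement CACGC, the core of the AHR response element; overlapping matches are counted separately. The Sema3e window is chr5:14025026-14025275 on the plus strand and the Plxnd1 window chr6:115995006-115995255 on the minus strand.
Sema3e: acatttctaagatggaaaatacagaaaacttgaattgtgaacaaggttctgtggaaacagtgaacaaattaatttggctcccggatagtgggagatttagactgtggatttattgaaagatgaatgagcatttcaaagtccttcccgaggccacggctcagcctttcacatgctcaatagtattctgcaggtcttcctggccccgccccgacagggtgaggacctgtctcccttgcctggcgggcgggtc
Plxnd1: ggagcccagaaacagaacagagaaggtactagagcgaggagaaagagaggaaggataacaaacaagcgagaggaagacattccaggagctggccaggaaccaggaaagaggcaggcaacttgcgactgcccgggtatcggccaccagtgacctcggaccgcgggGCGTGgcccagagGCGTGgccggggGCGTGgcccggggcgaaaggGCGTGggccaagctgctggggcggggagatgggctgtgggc
The Sema3e window holds 0 matches to the motif and the Plxnd1 window 4. Over all 32851 such windows in the RefSeq table, 28.2% hold at least 1 match and 0.846% hold 4 or more. The Plxnd1 window is 64.8% G or C and the Sema3e window 48.0%, against a median of 52.4% over all windows. A match is a stretch of letters and no evidence of binding. GCGTG is also a form of the core of the hypoxia response element, and every library received both the AHR ligand and hypoxia.

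Sema3d, a secreted semaphorin that acts on endothelial and neural crest cells, was close to the detection limit in the male-labelled libraries, at 0.0829, 0.153 and 0.388, which are 2, 4 and 11 reads. It was at 25.4, 27.9 and 25.6 in the female-labelled libraries. The log2 fold change of 4.50 is given as a description, with no p, because the gene passed the filter through the female-labelled libraries alone. Over all reads (17 and 1781) the depth-scaled ratio was 122, with an exact 95% interval of 75.7 to 209 for counting error alone. The ratio of the means was 126, and it was 223 without male 6, which held 11 of the 17 reads. Sema3c, which signals through neuropilins and can promote vessel growth, was at 18, 13.3 and 11.3 against 102, 106 and 123 (log2 fold change 2.89, SE 0.15, adjusted p = 1.07e-06). The separation of the groups was part of the rule that chose these 2 genes for values by library. Sema3a, the ligand of the neuropilin-1 and plexin-A complex, averaged 23.3 ± 6.68 against 88.0 ± 8.28 (log2 fold change 1.91, adjusted p = 4.21e-05). In the opposite direction, Sema3f, which binds neuropilin-2, fell from 48.4 ± 2.64 in the male-labelled libraries to 16.6 ± 2.38 in the female-labelled libraries (log2 fold change -1.50). Sema3b averaged 3.05 ± 0.0686 and 0.542 ± 0.316 (log2 fold change -1.41).

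Per kilobase of the longest transcript, a scale on which genes can be set beside each other, the 7 class 3 semaphorins summed to 28.6 ± 0.489 normalized reads in the male-labelled libraries and 176 ± 3.28 in the female-labelled libraries, 6.15 times as much. The make-up of that sum differed too. Sema3f was 49.8% ± 1.90 of it in the male-labelled libraries and 2.77% ± 0.385 in the female-labelled libraries, whereas Sema3e was 23.5% ± 1.74 and 74.9% ± 1.82. Sema3c took 9.04% and 11.4%, and Sema3d 0.115% and 2.37%. The leading class 3 semaphorin was Sema3f in every library labelled male and Sema3e in every library labelled female. These sums describe the libraries and carry no test.

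The membrane-bound semaphorins with the greatest decreases were of classes 4, 5 and 6. Sema6b, a transmembrane ligand of plexin-A4, was at 59.5, 33.4 and 33.3 normalized reads in the male-labelled libraries and 3.90, 5.13 and 5.65 in the female-labelled libraries (log2 fold change -2.83, SE 0.22, adjusted p = 1.02e-05). The library labelled male 4 was highest, and without it the log2 fold change was -2.56. Sema6a, which binds plexin-A2 and plexin-A4, was at 9.08, 11.1 and 12.6 against 1.25, 1.06 and 1.14 (log2 fold change -2.46, SE 0.13, adjusted p = 1.18e-06). Sema4g was at 25.6, 21.5 and 21.8 against 3.49, 4.24 and 4.56 (log2 fold change -2.24, SE 0.12, adjusted p = 1.09e-06). All 3 were among the genes chosen for having separate groups. Sema5a, a semaphorin with thrombospondin repeats, averaged 53.5 ± 5.34 and 10.9 ± 0.297 (log2 fold change -2.19). Sema6d, a plexin-A1 ligand, averaged 177 ± 54.3 and 47.6 ± 3.92 (log2 fold change -1.83, and -1.59 without male 4).

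Smaller decreases were found for Sema4c (-0.98), Sema4d (-0.96) and Sema4b (-0.39). Sema4d is the ligand of plexin-B1 and averaged 3.11 against 1.12. The 3 membrane-bound semaphorins that were higher in the female-labelled libraries were all at low counts. Sema4f averaged 0.354 and 2.29 (log2 fold change 1.27), Sema6c 0.962 and 2.16 (0.69), and Sema7a, which is anchored by a lipid, 2.57 and 5.71 (0.92). Summed per kilobase, the 12 genes of classes 4 to 7 were at 71.7 ± 14.3 in the male-labelled libraries and 26.4 ± 0.881 in the female-labelled libraries. Sema6d led this sum in the male-labelled libraries (37.8%) and Sema4b in the female-labelled libraries (31.4%, against 28.0% for Sema6d).

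The plexins differed gene by gene while their sum did not separate the groups. Plxnb2, a receptor for class 4 semaphorins, was at 690, 571 and 580 normalized reads in the male-labelled libraries and 650, 647 and 618 in the female-labelled libraries. The groups overlapped and the gene was not called (log2 fold change 0.06, SE 0.08, adjusted p = 0.517). Without the library labelled male 4 it was called higher, at 0.15 (adjusted p = 0.00940). Plxna2, also uncalled, was at 82.1, 71.3 and 76.9 against 71.6, 71.7 and 68.6 (log2 fold change -0.12, SE 0.07, adjusted p = 0.166). Its groups overlapped as well.

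Plxna1, a receptor for class 3 semaphorins with neuropilin and for Sema6d, was higher, averaging 170 ± 4.08 and 356 ± 13.8 (log2 fold change 1.06, adjusted p = 1.07e-06). Plxnb1 was higher by 0.46 on the log2 scale. Plxna3 (-0.75) and Plxna4 (-0.98) were lower. Plxnc1, the plexin that binds Sema7a, was at 4.60, 3.55 and 4.17 in the male-labelled libraries and at 0.0830, 0.0884 and 0.142 in the female-labelled libraries (log2 fold change -2.20, given with no p, since the gene passed the filter through the male-labelled libraries alone). These are 322 and 7 reads in all, a depth-scaled ratio of 39.6 with an exact 95% interval of 19.0 to 99.4 that covers counting error alone. All 3 libraries labelled female were at 3 reads or fewer.

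Per kilobase, the 8 plexins summed to 148 ± 11.9 in the male-labelled libraries and 149 ± 4.60 in the female-labelled libraries, with overlapping groups (139 to 162 and 144 to 153). Plxnb2 was the leading plexin in all 6 libraries, at 63.6% ± 1.85 and 66.0% ± 0.439 of the sum. Plxnd1 went from 16.0% ± 0.901 to 1.41% ± 0.222, and Plxna1 from 12.7% ± 0.774 to 26.4% ± 0.327. The second plexin was thus Plxnd1 in every library labelled male and Plxna1 in every library labelled female.

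**Figure D2:**
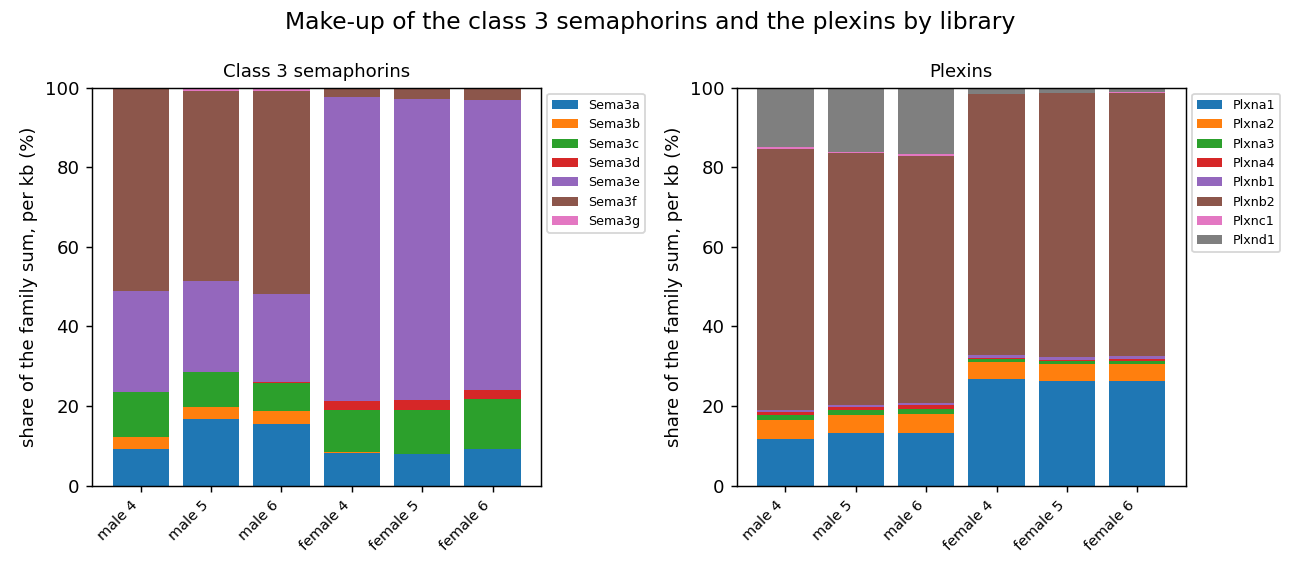
Share of the per-kilobase sum taken by each gene in each library, in percent, for the 7 class 3 semaphorins (left) and the 8 plexins (right). Sema3f and Sema3e exchange the leading place between the label groups, while Plxnb2 stays near 64% to 66% of the plexins and Plxnd1 shrinks from 16.0% to 1.41%.

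The neuropilins and other partners of these receptors were read from a separate list. Of its 24 genes, 21 were in the table and tested: 6 were higher, 7 lower and 8 not called. The 61.9% called and the median log2 fold change of -0.13 compare with 69.3% and 0.01 over all genes tested. Nrp2, the coreceptor of Sema3f and also of Sema3c, was higher, from 30.0 ± 5.19 to 120 ± 7.56 (log2 fold change 1.98, adjusted p = 1.94e-06). Nrp1, the coreceptor of Sema3a, was slightly lower, from 206 ± 10.3 to 166 ± 8.01 (-0.31, adjusted p = 0.00265). The integrin subunit gene Itgb1 (1.29) was higher. Itga1 (-2.07) and Fes (-1.01), which encodes a kinase downstream of semaphorin 3A, were lower.

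In the ephrin-Eph system the ligand genes Efna1, Efna5 and Efnb2 were lower and the receptor genes Epha2, Epha4 and Ephb2 higher in the female-labelled libraries. Of the 14 genes tested, 4 were higher, 5 lower and 5 not called. The 64.3% called is close to the 69.3% of all genes, and the median log2 fold change was -0.13 against 0.01 over all genes. Of the 7 ephrins, 1 was higher, 3 lower and 3 not called. Of the 7 Eph receptors tested, 3 were higher, 2 lower and 2 not called. Epha1, among the lower, passed the filter through 1 group alone.

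Efna1, a ligand of EphA2 that is known as a gene induced by inflammatory cytokines in endothelium, was at 35.6, 41.9 and 42.1 normalized reads in the male-labelled libraries and 3.49, 4.33 and 5.08 in the female-labelled libraries. Its mean was 9.27 times lower (log2 fold change -2.95, SE 0.13, adjusted p = 4.00e-07). Efna5, an A-type ephrin with a role in axon repulsion, was at 97.8, 93.3 and 99.9 against 50.6, 50.7 and 60.4 (log2 fold change -0.84, SE 0.08, adjusted p = 3.30e-05). Efna4 was higher, at 5.43, 3.58 and 4.70 against 5.93, 8.44 and 6.79 (log2 fold change 0.53, SE 0.16, adjusted p = 0.0180). Its groups were separated by a narrow gap, 10.5% of its exonic bases overlap a gene on the other strand, and it was no longer called without male 5 (0.40, adjusted p = 0.0614) or without female 5 (0.41, adjusted p = 0.0726). Efna2 (1.61 against 1.28 on average) and Efna3 (2.51 against 1.82) were not called. Without male 4, Efna3 was called lower (-0.51, adjusted p = 0.0141).

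Among the receptors, Epha2, the main EphA receptor of adult endothelium, was at 179, 149 and 160 in the male-labelled libraries and 447, 455 and 389 in the female-labelled libraries (log2 fold change 1.40, SE 0.09, adjusted p = 2.73e-06). Epha4, which can bind ephrins of both types, was at 5.39, 6.90 and 7.24 against 41.7, 38.7 and 31.2 (log2 fold change 2.35, SE 0.14, adjusted p = 1.96e-06). Each library labelled female was above each labelled male for both receptors. Such a separation was part of the rule that chose them for values by library. Epha1 was lower (-0.59), averaging 1.30 and 0.542. Epha7 was not called (3.82 and 4.15 on average, adjusted p = 0.581). Reads of Epha2 for each read of Efna1 numbered 3.56 to 5.03 in the male-labelled libraries and 76.6 to 128 in the female-labelled libraries.

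The windows before the start sites of Epha2 and Efna5 are shown because these genes led the EphA receptors and the A-type ephrins per kilobase in the female-labelled libraries and differed in opposite directions. Capitals again mark GCGTG or CACGC. They are chr4:141300971-141301220 on the plus strand and chr17:62881318-62881567 on the minus strand of GRCm38.p6 (RefSeq).
Epha2: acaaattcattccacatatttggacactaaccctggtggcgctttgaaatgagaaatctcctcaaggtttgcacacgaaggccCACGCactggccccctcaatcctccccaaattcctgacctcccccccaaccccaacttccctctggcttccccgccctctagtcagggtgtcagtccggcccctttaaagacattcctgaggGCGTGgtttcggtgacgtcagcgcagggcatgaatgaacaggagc
Efna5: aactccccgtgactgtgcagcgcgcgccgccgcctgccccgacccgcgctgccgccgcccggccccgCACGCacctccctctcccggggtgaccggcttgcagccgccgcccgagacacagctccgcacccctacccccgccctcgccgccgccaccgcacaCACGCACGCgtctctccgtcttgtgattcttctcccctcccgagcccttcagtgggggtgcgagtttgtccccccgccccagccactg
The Epha2 window holds 2 matches and the Efna5 window 3, of which 2 overlap by 1 base. Among all windows 8.63% hold 2 or more and 2.77% hold 3 or more. The windows of Efna1, which was lower by more, hold 0 matches. Bases just after the RefSeq start of Epha2 were not found in a GENCODE M21 transcript of the gene, unlike those of Sema3e, Plxnd1 and Efna5, so its start site is less certain.

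Efnb2, the arterial ligand, was at 369, 350 and 354 normalized reads in the male-labelled libraries and 179, 208 and 213 in the female-labelled libraries (log2 fold change -0.84, SE 0.08, adjusted p = 2.24e-05). Ephb4, its venous receptor, was at 106, 64.9 and 59.6 against 71.3, 69.2 and 75.2 and was not called (log2 fold change -0.05, SE 0.19, adjusted p = 0.827). The library labelled male 4 was the highest of the 6 for Ephb4. Without it the gene was called higher, at 0.21 (adjusted p = 0.0122), so its direction rests on that library. Reads of Efnb2 for each read of Ephb4 numbered 3.47, 5.38 and 5.94 in the male-labelled libraries and 2.51, 3.01 and 2.83 in the female-labelled libraries, with no overlap.

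The other B-type genes were less abundant. Ephb2 was at 5.35, 4.99 and 5.79 against 13.3, 14.1 and 16.5 (log2 fold change 1.29, SE 0.11, adjusted p = 1.71e-05). Ephb3 went the other way, at 7.09, 8.05 and 6.39 against 4.32, 3.45 and 3.99 (log2 fold change -0.73, SE 0.12, adjusted p = 7.91e-04). The groups of both receptors were separate, which the rule that chose them for values by library required. Efnb1, at 15, 26.9 and 24.5 against 30.4, 32.1 and 26.4, was not called (log2 fold change 0.44, SE 0.20, adjusted p = 0.0731). Its lowest library was male 4, without which the log2 fold change was 0.19 (adjusted p = 0.0793). It was called higher without male 5 (0.60, adjusted p = 0.0252) and after quantile normalization (0.49, adjusted p = 0.0475).

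Per kilobase, the 4 EphA receptors summed to 43.6 ± 3.72 in the male-labelled libraries and 117 ± 10.03 in the female-labelled libraries, while the 5 A-type ephrins summed to 53.2 ± 2.48 and 21.8 ± 1.62. The A-type ligand sum was above the A-type receptor sum in all 3 libraries labelled male and below it in all 3 labelled female. Epha2 made up 95.4% and 94.3% of the EphA sum. The 2 B-type ephrins summed to 81.4 ± 0.240 and 50.8 ± 3.65, and the 5 EphB receptors to 20.0 ± 5.90 and 19.0 ± 0.923. The EphB overlap rests on male 4 (26.8), since male 5 (17.4) and male 6 (15.8) lie below the female-labelled libraries (18.1 to 19.9). Among A-type ephrins, Efna1 and Efna5 each held close to the same share in the male-labelled libraries (45.9% and 45.3%). In the female-labelled libraries Efna5 held 61.3%, Efna4 20.3% and Efna1 12.0%.

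**Figure D3:**
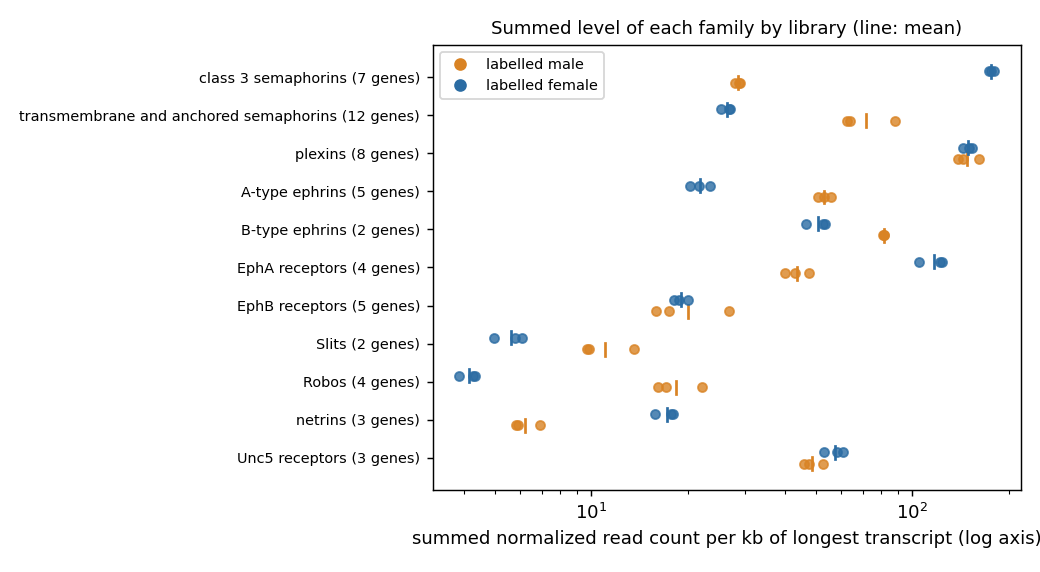
Summed normalized read count per kilobase of longest transcript (log axis) of each ligand or receptor family in each library, with vertical lines at the group means. The plexin and EphB sums overlap between the label groups, class 3 semaphorins and EphA receptors are higher in the 3 libraries labelled female, and Robos are lower (18.4 against 4.16).

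Of the effectors listed for Eph receptors and ephrins, 20 of 21 were in the table and tested: 7 were higher, 10 lower and 3 not called (85.0%, against 69.3% of all genes), with a median log2 fold change of -0.23. Rasa1, which encodes a Ras GTPase-activating protein that binds activated Eph receptors, was higher (42.7 ± 5.89 against 136 ± 2.45, log2 fold change 1.66). The Src-family kinase genes Yes1 (1.12) and Src (0.63) were also higher. Vav3, which acts in ephrin-A signalling in endothelium, was lower (10.5 ± 0.351 against 3.30 ± 0.454, log2 fold change -1.43). Arhgap33 (-0.92) and Anks1 (-0.76), an Eph adaptor gene, were lower too.

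In the Slit-Robo system both a ligand and its main receptor were lower in the female-labelled libraries. Of the 5 genes tested 2 were called higher and 3 lower, 1 of them Robo4, which passed the filter through 1 group alone; 69.3% of all genes were called. Slit3, a secreted ligand expressed by vascular mural cells and endothelium, was at 45.7, 36.6 and 37.0 normalized reads in the male-labelled libraries and 1.33, 2.61 and 2.99 in the female-labelled libraries. The mean was 17.2 times lower (log2 fold change -3.65, SE 0.20, adjusted p = 1.24e-06). Robo1, a Slit receptor, was at 161, 117 and 122 against 24.8, 28.6 and 28.2 (log2 fold change -2.24, SE 0.12, adjusted p = 1.26e-06). For both genes the groups were separate, which the rule that chose them for values by library required.

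Robo4, the Robo gene enriched in endothelium, was at 2.65, 1.91 and 2.68 against 0.291, 0.354 and 0.427 (log2 fold change -1.32, given with no p, since the gene passed the filter through the male-labelled libraries alone). Its lower values run with those of the endothelial markers, and the part of those in it was not tested. Robo3, a divergent Robo known from commissural axons, was at 0.664, 1.56 and 1.48 against 2.57, 2.08 and 2.23 (log2 fold change 0.58, SE 0.18, adjusted p = 0.0184). Male 4 was below the filter value of 1, so the gene passed only with female-labelled libraries counted, which favours a higher value there. Without male 4, its lowest library, the log2 fold change was 0.38 (adjusted p = 0.0211), and it was no longer called without female 4 (0.52, adjusted p = 0.0657). Slit2 ranged from 26.9 to 47.9 in the male-labelled libraries and from 47.0 to 54.8 in the female-labelled libraries, with male 4 above the lowest library labelled female. It was called higher (log2 fold change 0.63, SE 0.20, adjusted p = 0.0212). The log2 fold change was 0.90 without male 4, and it was not called without male 5, male 6, female 5 or female 6 (0.50 to 0.62, adjusted p from 0.0620 to 0.0716).

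Reads of Slit2 for each read of Slit3 numbered 0.734 to 1.05 in the male-labelled libraries and 18.3 to 35.4 in the female-labelled libraries. Per kilobase, the Slits summed to 11.0 ± 2.19 and 5.61 ± 0.570, and Slit2 went from 30.4% ± 4.45 to 92.3% ± 2.30 of that sum. The 4 Robos summed to 18.4 ± 3.18 and 4.16 ± 0.246, and Robo1 held 95.8% and 86.3%. Of 13 listed Slit and Robo effectors, all tested, 2 were higher, 4 lower and 7 not called (46.2% called, against 69.3% of all genes), with a median log2 fold change of -0.09. Dag1, which encodes dystroglycan, a Slit-binding protein, was lower (-0.70), as were Gpc1 (-0.43), which encodes a heparan sulfate proteoglycan, and Flrt3 (-0.40). Sos1 (0.61) and Pak1 (0.24), of the Robo path to Rac, were higher.

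The netrins changed order. Ntn4, a laminin-related netrin of vascular basement membranes, was at 4.35, 3.36 and 3.21 normalized reads in the male-labelled libraries and 57.4, 56.4 and 50.2 in the female-labelled libraries (log2 fold change 3.59, SE 0.12, adjusted p = 9.25e-08). Ntn1, the ligand of the DCC and Unc5 receptors, was at 21.3, 16.9 and 18.3 against 9.67, 9.50 and 8.07 (log2 fold change -0.97, SE 0.12, adjusted p = 1.05e-04). Ntn3 was at 10.7, 10.2 and 9.57 against 2.99, 3.32 and 3.13 (log2 fold change -1.43, SE 0.10, adjusted p = 5.01e-06). The groups of the 3 netrins did not overlap, as in 74.1% of all genes tested. Reads of Ntn4 for each read of Ntn1 numbered 0.176 to 0.205 in the male-labelled libraries and 5.93 to 6.22 in the female-labelled libraries.

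Unc5b, the netrin receptor of endothelial tip cells, was at 304, 264 and 274 against 350, 335 and 305 (log2 fold change 0.23, SE 0.08, adjusted p = 0.0268). The difference was small, and it was not called without male 5, male 6, female 4 or female 5 (0.19 to 0.22, adjusted p from 0.0773 to 0.104). Unc5c was at 1.70, 0.763 and 0.636 against 6.64, 6.63 and 4.99 (log2 fold change 1.83, given with no p). Of the male-labelled libraries only male 4 reached the filter value of 1, so the gene needed the female-labelled libraries to pass. Unc5a, at 2.74, 3.32 and 3.14 against 2.53, 2.39 and 2.09, was not called (log2 fold change -0.28, SE 0.12, adjusted p = 0.0555). It was called lower without male 4 (-0.34, adjusted p = 0.0274), with median-ratio size factors (-0.29, adjusted p = 0.0491) and with no filter (-0.28, adjusted p = 0.0465).

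Per kilobase, the netrins summed to 6.22 ± 0.620 in the male-labelled libraries and 17.2 ± 1.21 in the female-labelled libraries. Ntn1 led this sum in the male-labelled libraries (51.5% ± 1.78, with Ntn4 at 16.0%) and Ntn4 in the female-labelled libraries (87.4% ± 0.186, with Ntn1 at 8.99%). The Unc5 receptors summed to 48.7 ± 3.60 and 57.4 ± 4.08, and Unc5b held 98.2% and 97.9%. Of 14 other netrin receptors and effectors listed, 11 were in the table and tested: 5 were higher, 3 lower and 3 not called (72.7% called, against 69.3% of all genes), with a median log2 fold change of 0.11. Neo1, which encodes the netrin and RGM receptor neogenin, was not called (142 ± 17 against 150 ± 3.11, log2 fold change 0.08). Its ligand gene Rgma was lower (46.4 ± 2.09 against 15.1 ± 2.95, -1.58), as was Dock1 (-0.34), which encodes an exchange factor. Draxin, counted among the 3 lower genes, averaged 3.20 ± 0.910 and 0.202 ± 0.112 (-1.78), but it passed the filter through the male-labelled libraries alone. The higher genes with the largest changes were Ptk2 (0.63), which encodes focal adhesion kinase, Pitpna (0.42) and Flrt2 (0.40). Dcc was not analysed here.

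**Figure D4:**
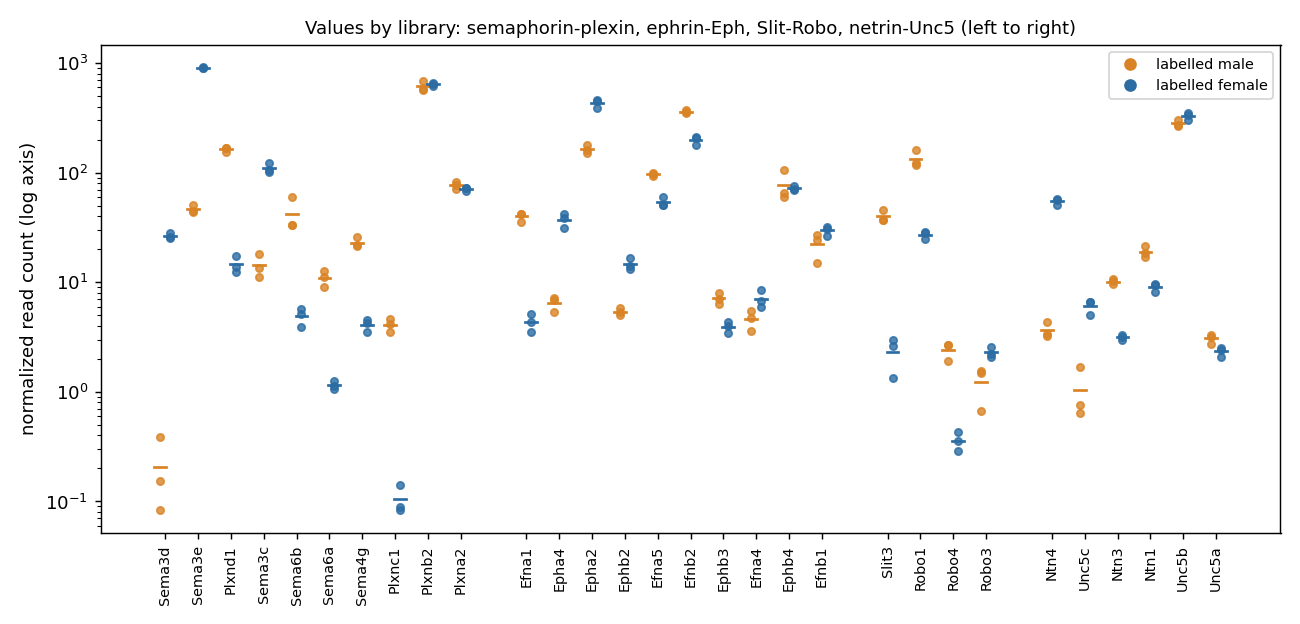
Normalized read count (log axis) in each library of the guidance genes chosen by the naming rule in each system: up to 8 called genes with the largest log2 fold change and separate groups, and up to 2 uncalled genes with the highest mean; short lines are group means. Sema3d and Plxnc1 lie near the detection limit in 1 group, while Plxnb2, Plxna2 and Ephb4 overlap.

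The 5 guidance genes that did not pass the filter were Robo2, Ephb1, Ephb6, Sema3g and Sema4a. Robo2 ranged from 0 to 0.570 normalized reads over the 6 libraries, Sema4a from 0.207 to 0.751 and Ephb6 from 0.398 to 1.26. Ephb1 was at 0 reads in the male-labelled libraries, where the 3 reads that a count of 0 allows are 0.106 to 0.124 normalized reads, and at 7 reads in all in the female-labelled libraries. Sema3g, an arterial class 3 semaphorin, was at 0.415, 1.07 and 1.02 in the male-labelled libraries and at 0.125, 0 and 0.0950 in the female-labelled libraries. These are 67 and 5 reads in all, a ratio of 11.5 with an exact 95% counting interval of 4.71 to 36.7. The ratio of the means was 17.6 without female 4 and 7.61 without female 5, and in a fit with no filter it was called lower (log2 fold change -0.76, adjusted p = 0.00324).

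Some known ligand and receptor partners differed in opposite directions and others in the same direction. Ligand and receptor went opposite ways for Sema3e (higher) and Plxnd1 (lower), and for Efna1 (lower) and Epha2 (higher). Sema4d, Sema6d and Sema3f were lower while their partners Plxnb1, Plxna1 and Nrp2 were higher. Sema3a and Sema7a were higher while their partners Nrp1 and Plxnc1 were lower. Ligand and receptor were both lower for Slit3 and Robo1 and for Sema6a and Plxna4. Both partners were higher for Sema3c and its coreceptor Nrp2 and for Sema3a and Plxna1. For Efnb2 and Ephb4 the ligand was lower and the receptor was not called. These pairs are examples picked after their values had been seen, so they give no tally of directions. All of these values come from the RNA of whole cultures and do not tell which cells made each RNA.

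The 4 class 3 semaphorins that were higher lie on chromosome 5 within a stretch that holds 22 protein-coding RefSeq genes, a feature noticed after the values were seen. In RefSeq order the table's genes of that stretch are Sema3d, Sema3a, Speer3, Sema3e, Speer8-ps1, Cacna2d1, Hgf and Sema3c. Of the 4 other genes there, 3 were tested. Cacna2d1 (0.82), which encodes a calcium channel subunit, was higher. Speer3 (1.77) and Hgf (-4.47) passed the filter through 1 group alone, the female-labelled and the male-labelled libraries respectively, so their values are a description with no p. Hgf, which encodes hepatocyte growth factor, was at 33.0, 46.3 and 41.3 in the male-labelled libraries and 0.955, 0.884 and 0.712 in the female-labelled libraries. It lies next to Sema3c among the table's genes. Of the 5 table genes on either side of the stretch, Tmem243 and Tmem60 were lower, Abcb1b, Crot, Dmtf1, Gnai1 and Phtf2 were higher, Magi2 was not called, and Abcb4 and Cd36 were not tested.

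**Figure D5:**
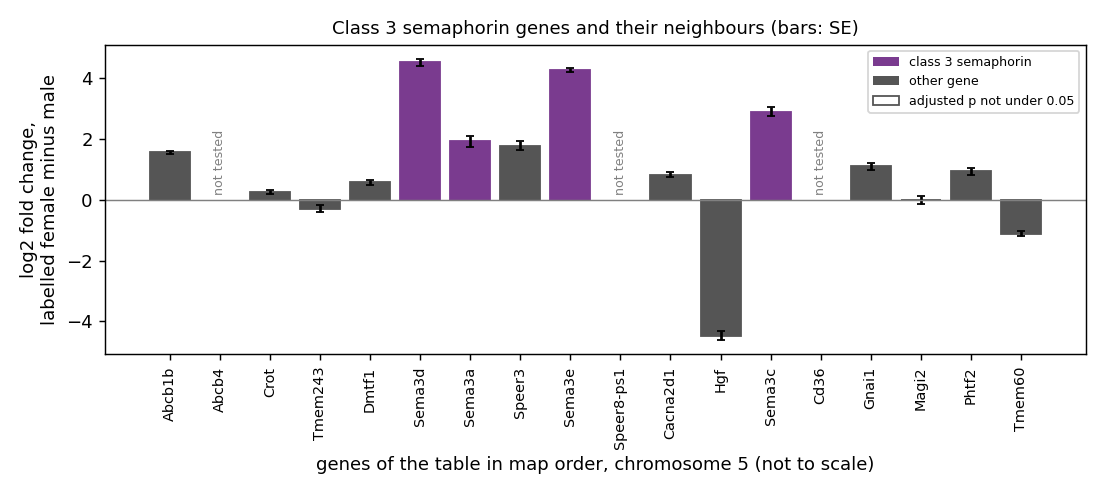
Log2 fold change (libraries labelled female minus male, bars of 1 SE) of the table's genes in map order around the class 3 semaphorins of chromosome 5, not drawn to scale; purple bars are class 3 semaphorins. Sema3d, Sema3a, Sema3e and Sema3c are all higher, while Hgf, between Cacna2d1 and Sema3c, is at -4.47.

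The authors' deposited table gives a false discovery rate below 0.05 for 26 of the 55 guidance genes, 9 higher and 17 lower in the female-labelled libraries, against 25.8% of all 13595 genes in it. Of these 26, 25 were also called here, in the same direction, and 1 (Sema3g) was not tested here. A further 17 guidance genes were called here and not in the authors' deposited table. Among them, Sema3a has a linear fold change of 3.77 there with a false discovery rate of 0.131, and Robo4 one of -6.69 with 0.112.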

How the data were processed

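Poly(A) RNA was sequenced in 6 libraries; Trizol, a column kit and Kapa HyperPrep were used, per the labels' protocols. The submitters' processing notes name Bowtie2, RSEM, edgeR and mm39, without roles or versions. The deposited unit is a signal, read counts normalized by the authors, with 1 column per library over 13595 genes. All of them (100%) were whole multiples of the value of 1 read within 0.01, so the authors divided whole reads by 1 factor per library, and reads were recovered for the count tests. Per the file headers, the deposited table also holds a score (a linear fold change with a sign, female against male, computed by the authors) and p-value columns (the authors' p and false discovery rate).

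Groups followed the labels. Values were transformed to log2(value + 1), and 3 or more libraries had to reach a value of 1. The transformation shrinks the fold changes of weakly expressed genes. Robo4, for example, was at -1.32 in limma and at -2.76 in the edgeR test. The 12568 genes left were fitted with limma 3.58.1 (R 4.3.3, eBayes, trend = TRUE) and called at a Benjamini-Hochberg adjusted p below 0.05. edgeR 4.0.16 (quasi-likelihood), DESeq2 1.42.0 and voom on recovered reads, other scalings, filters and pseudocounts, and leaving out each library were alternatives. The code was tested on simulated data. Guidance genes, gene lists and the naming rule were chosen with earlier results of these data known. Per-library values are given for up to 8 called genes per system with the largest change, a mean of at least 1 and separate groups, and up to 2 uncalled genes with the highest mean; pathway genes are those with the largest changes, up to 3 each way, beside Nrp1, Nrp2, Neo1 and Dcc. Some genes that the rule selects are not reported here.

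Levels between genes were compared per kilobase of the longest GENCODE M21 transcript (GRCm38), in which all 55 guidance symbols were found. Promoter windows and gene order came from RefSeq (GRCm38.p6), with windows for 49 of the 55. Since the authors' notes name mm39, no other coordinates are given. At most 2.60% of a guidance gene's 50-mers occur in other genes. Strandedness is not given in the sources used here, and between 6.01% and 14.1% of the exonic bases of Epha1, Sema4c, Efna4, Plxna1 and Efna3 overlap a gene on the opposite strand, whose reads cannot be told apart from theirs without strand.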

Additional observations from a re-analysis of the deposited data

How the results depend on the processing

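Recomputed over all alternatives, 756 values of single guidance genes kept their direction and their side of the threshold, 28 lost a call, 7 gained one and 3 turned direction, 1 of which (Ephb4 without male 4) was also called. A minimum log2 fold change of 1 took 17 of the 28 lost calls, by construction, and 25 of the 42 called genes passed it. Under the other alternatives in which they were tested, 38 of the 42 kept direction and call, and Robo3, Slit2, Efna4 and Unc5b lost the call in at least 1 fit that left out a library. The 3 turns were of uncalled genes: Epha7 without male 5 (-0.011), and Ephb4 after quantile normalization (0.017) and without male 4 (0.21; over all libraries left out in turn, -0.21 to 0.21). Leaving out each library in turn gave 7731 to 9496 called genes and 39 to 46 called guidance genes. With the minimum fold change, 2589 genes and 25 guidance genes were called, 11 higher and 14 lower. The edgeR test called 8651 genes (68.8%) and DESeq2 8558, each with 42 guidance genes. A filter of 10 reads in every library left 44 guidance genes and called 36, and called 8236 of 12258 genes in all. With the replicate block, 8314 genes and 42 guidance genes (18 higher and 24 lower) were called, and no guidance gene changed its call. Deviations from the group means correlated at -0.09, -0.03 and -0.17 between same-numbered libraries. With 3 libraries a group these deviations are not independent, so a pairing by number was neither shown nor excluded. Depth limits Sema3d, Plxnc1 and Sema3g, which were at or near 3 reads in 1 group, and Ephb1, which was so in both groups. The 3 libraries a group, the Y-linked reads in the libraries labelled female and the marker differences limit what the contrast describes, and the labels name no batch.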

Other observations

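Some guidance genes that are neighbours among the table's genes differed in opposite directions, as read from RefSeq gene order after the values were seen. Efna1, Efna3 and Efna4 have no other gene of the table between them on chromosome 3, and were lower (-2.95), not called (-0.30) and higher (0.53). Robo4 and Robo3 are likewise neighbours in the table on chromosome 9, and were lower (-1.32) and higher (0.58). Sema3b and Sema3f, with 2 genes of the table between them on the same chromosome, were both lower (-1.41 and -1.50).

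The core of the AHR response element, GCGTG on either strand, occurred in 22 of the 65 promoter windows of guidance genes (33.8%), against 28.2% of all windows. It was in 7 of 18 windows of genes that were higher in the female-labelled libraries and in 9 of 26 windows of genes that were lower. Bases just after the start were found in a GENCODE M21 transcript of the gene for 50 of the 65 windows, so the other start sites are less certain. ACGTG on either strand, a form of the core of the hypoxia response element, occurred in 11 of 65 (16.9%), against 16.6% of all windows. It was in 2 of 18 windows for higher genes and 7 of 26 for lower genes. The other form of the hypoxia core is GCGTG, so a match to that motif does not tell the elements apart. A gene can have several windows.

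Genes used as markers of arterial and venous identity were also read. Over all genes tested, 34.6% were higher and 34.6% lower. Of 11 arterial genes present, 7 were tested, of which 1 was higher and 6 lower in the female-labelled libraries, and the list summed to 1068 to 1120 normalized reads against 591 to 620. Of 8 venous genes 6 were tested, of which 1 was higher (Nrp2), 4 lower and 1 not called, and the sums were 1548 to 1670 and 1137 to 1249. The lists share genes with the guidance set (Efnb2, Sema3g and Unc5b among the arterial, Ephb4 among the venous), so they are no independent measure of it.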
